A study of Homo sapiens with 10 samples.

Results

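Unirradiated cultures of a human kidney tubule cell line differed in the RNA level of MKI67, a marker of cycling cells. The low-MKI67 and high-MKI67 control cultures are called slow and fast here after that level alone, since the rate of division was not measured. The members are all 5 control samples of the 10 samples in the series. The sets were chosen by the measured level of MKI67, the gene of the proliferation antigen Ki-67. The low-MKI67 set holds 2 cultures, control replicates 1 and 3 (labelled B1-NR and B4-NR), and the high-MKI67 set holds 3 cultures, control replicates 2, 4 and 5 (labelled B3-NR, B5-NR and B6-NR). The cells were RPTEC/TERT1, proximal tubule epithelium made immortal with telomerase and grown in medium with epidermal growth factor and hydrocortisone. The labels number the line differently in each sample, whereas the methods of the study name RPTEC/TERT1 alone. The control cultures were taken to the irradiator but received 0 Gy, and the 5 other samples received 10 Gy. RNA from both groups was taken on day 7 after that treatment and sequenced in bulk. The labels do not say that replicates are separate cultures, so a p-value measures the spread between these samples, which may be technical. In bulk RNA, a smaller share of cells that express a gene and less of its RNA per cell cannot be told apart.

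Proximal tubule cells take up solute, amino acids and protein across a brush border of microvilli, and in the healthy kidney they divide seldom. In culture with growth factor they divide until they crowd. Cells that enter the cycle transcribe the genes of DNA synthesis first and those of mitosis later. Many mitotic genes share a short promoter element, the cell cycle genes homology region (CHR), which the DREAM and MuvB complexes bind to keep them silent in resting cells. Growth factor signalling through ERK induces another class, the immediate early genes such as EGR1 and FOSL1. The products of the YAP and TEAD pathway, such as CCN2, respond to crowding and stretch.

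Counts on genes ranged from 78081911 in control replicate 1 to 131555873 in control replicate 2. Of 61587 listed genes, 19006 reached at least 200 counts over the 10 samples and were compared. Levels are CPM, counts per 1000000 counts of the TMM-normalised library. Among tubule markers, PAX8 lay between 468.4 and 626.5 CPM in the controls, KRT8 between 839.0 and 1194.8, CDH1 between 224.0 and 296.9, and ANPEP, a brush border peptidase, between 188.4 and 368.2. AQP1 lay between 1.46 and 2.07. LRP2, the endocytic receptor megalin that defines the mature proximal tubule, had 1 count in all 5 controls, so this line carries the epithelial markers without that receptor. Mitochondrial genes took 10.7% of counts in control replicate 3 and 7.78% to 8.61% in the other 4 controls.

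MKI67 chose the sets, so its values and those of other cell cycle genes are a description and support nothing. MKI67 read 76.7 CPM in control replicate 1 and 60.4 in control replicate 3, against 220.4, 233.9 and 216.7 in control replicates 2, 4 and 5. The nearest cultures on either side of the divide are thus replicate 1 at 76.7 and replicate 5 at 216.7, and the set means were 68.6 ± 11.5 (SD, n = 2) and 223.6 ± 9.09 (SD, n = 3). TOP2A, the topoisomerase that untangles replicated DNA, read 38.9 and 42.2 against 130.8, 135.7 and 126.4. The cultures of either set were alike in these genes, and no culture lay in between. CCNA2, the cyclin of S phase and G2, read 10.6 and 9.27 against 27.4, 30.9 and 29.0. Of 24 mitotic genes, 23 were lower in both low-MKI67 controls than in all 3 high-MKI67 controls by at least 1.5-fold between the set means, the rule by which a gene is said here to lie apart. Of 491 genes on a list of cell cycle genes, 266 lay apart in that direction and 1 in the other. The irradiated cultures stood below both control sets, with MKI67 between 15.3 and 29.6 CPM.

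**Figure D1:**
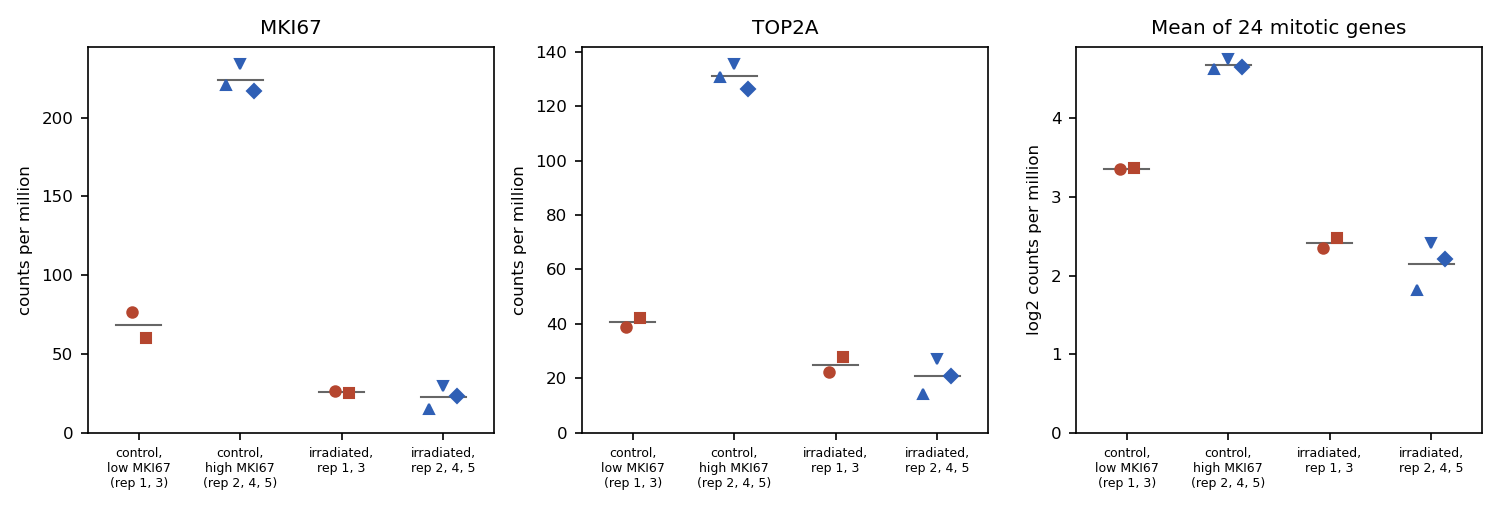
MKI67 and TOP2A in CPM and the mean of 24 mitotic genes in log2 CPM, on the y axes, for each control and irradiated culture; each point is 1 sample, its shape gives the replicate number, and grey lines are set means. The low-MKI67 controls read 76.7 and 60.4 for MKI67 and the high-MKI67 controls 216.7 to 233.9, while the irradiated cultures, divided by the same replicate numbers, overlap between 15.3 and 29.6.

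The MKI67 promoter is shown because it holds the CHR letters of the gene that set the division. The capitals mark TTTGAA, and the sequence is the 250 bases before the RefSeq start, read 5′ to 3′ on the minus strand of GRCh38.p14 at chr10:128126424-128126673.
MKI67: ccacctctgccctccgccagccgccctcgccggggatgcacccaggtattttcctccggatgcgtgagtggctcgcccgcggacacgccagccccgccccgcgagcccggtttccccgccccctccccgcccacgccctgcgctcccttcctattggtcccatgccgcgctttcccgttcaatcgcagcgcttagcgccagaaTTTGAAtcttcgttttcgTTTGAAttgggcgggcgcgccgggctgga
The element occurred at 2 places in this stretch. In windows from 250 bases before to 50 after the start, TTTGAA on either strand was found in 38.4% of the 219 cell cycle list genes that were lower in the low-MKI67 controls and had a promoter sequence, against 9.98% of the 12289 promoters of all genes compared. A match of letters is a description and shows no binding.

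Outside the cell cycle list the cultures did not divide as cleanly. Over 12406 other genes with a mean of at least 1 log2 CPM, the root mean square difference between control replicates 1 and 3 was 0.38 on the log2 scale. Control replicate 1 differed from the high-MKI67 controls by 0.32 to 0.33 and control replicate 3 by 0.41 to 0.43. The low-MKI67 cultures therefore differed from each other about as much as from the fast-cycling cultures in these genes, whereas the 3 high-MKI67 cultures differed among themselves by 0.13 to 0.22, the smallest value being that of replicates 4 and 5. Over 436 cell cycle genes the same measure was 0.32 between replicates 1 and 3, 0.88 to 0.98 between the sets and 0.10 to 0.16 within the high-MKI67 set.

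Of 18515 genes outside the cell cycle list, 776 (4.19%) lay apart with higher levels in the low-MKI67 controls and 703 (3.80%) with lower levels. With the cell cycle genes included, the shares of all 19006 genes were 4.09% and 5.10%. The median difference was 0.80 on the log2 scale for the higher genes and −0.82 for the lower genes. Protein-coding genes made up 552 of the higher and 456 of the lower genes, and long non-coding RNA genes 151 and 173. No p is given for this contrast, since the cultures were divided by a gene measured in the same libraries. Control replicate 3 was the more extreme of the slow cultures in most of them, above replicate 1 in 495 of the 776 and below it in 523 of the 703. Taken alone, replicate 1 lay at least 1.5-fold from the mean of the high-MKI67 set in 519 of the higher and 432 of the lower genes, and replicate 3 in 640 and 629. When control replicate 3 was left out, the rule rests on replicate 1 alone and 1449 genes (7.62%) were higher and 977 (5.14%) lower; without control replicate 1 the counts were 1454 and 2107.

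The 12 genes per direction with the widest gaps between the nearest cultures of the sets belonged to genes of many kinds. PSG4, a pregnancy-specific glycoprotein, read 7.25 and 29.7 CPM in control replicates 1 and 3 and 1.08, 1.09 and 1.5 in replicates 2, 4 and 5, a difference of 3.58 on the log2 scale. Its family shares near-identical sequence, so reads may be divided among its members. SHC2, an adaptor protein of receptor tyrosine kinases, read 47.6 and 57.1 against 15.3, 11.3 and 12.7. CPAMD8, a member of the complement C3 and alpha-2-macroglobulin family, read 42.8 and 35.5 against 11.9, 6.88 and 10.8. In SHC2 and CPAMD8 the slow cultures were close to each other, while in PSG4 replicate 3 stood far above replicate 1. SEMA5B, a semaphorin, read 17.2 and 18.5 against 5.39, 5.71 and 7.02. SLC6A20, an imino acid transporter of kidney and gut, read 5.86 and 4.84 against 2.22, 1.91 and 1.96. PIFO and SPAG17, both linked to cilia, were close to 2-fold higher, PIFO at 9.59 and 9.16 against 4.01, 4.15 and 4.37 and SPAG17 at 6.53 and 6.66 against 3, 3.15 and 2.93. The 46 tested genes of the primary cilium list nevertheless held no gene that lay apart, with a median difference of 0.05. CD7, best known from T cells, read 6.81 and 6.89 against 3.33, 2.77 and 2.55, while CD3E was at 0 in every control. PRSS22, IGSF22, NRAD1 and SERPING1 completed the 12 higher genes, with gaps of 1.03 to 1.22 on the log2 scale.

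Among genes lower in the slow cultures, CAMK4, a calcium and calmodulin-dependent kinase, read 2.57 and 2.28 CPM against 8.06, 7.65 and 7.21. NTM, a neural adhesion molecule, read 2.76 and 2.67 against 9.77, 7.62 and 7.74. GFRA1, the co-receptor through which GDNF signals in kidney development, read 13.3 and 20.1 against 43.0, 49.6 and 48.5. None of these overlapped between the sets, as the rule requires. FGF18, a fibroblast growth factor, read 8.84 and 7.72 against 26.2, 19.0 and 21.3. KCNMA1, a calcium-activated potassium channel, read 13.5 and 11.6 against 28.1, 27.7 and 26.6. EMP2, an epithelial membrane protein, read 5.60 and 6.24 against 13.4, 12.5 and 13.7. Both slow cultures sat close together in these 3 genes. PTGS1, the constitutive cyclooxygenase, read 5.69 and 5.24 against 12.7, 12.5 and 11.6. INSYN2B, ENTREP2, FILIP1, DGCR6 and CCN2 completed the 12 lower genes, whose gaps between the nearest cultures ran from 0.97 to 1.48 on the log2 scale. FILIP1 is uncertain, as 38.4% of its exons lie under a gene of the opposite strand.

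**Figure D2:**
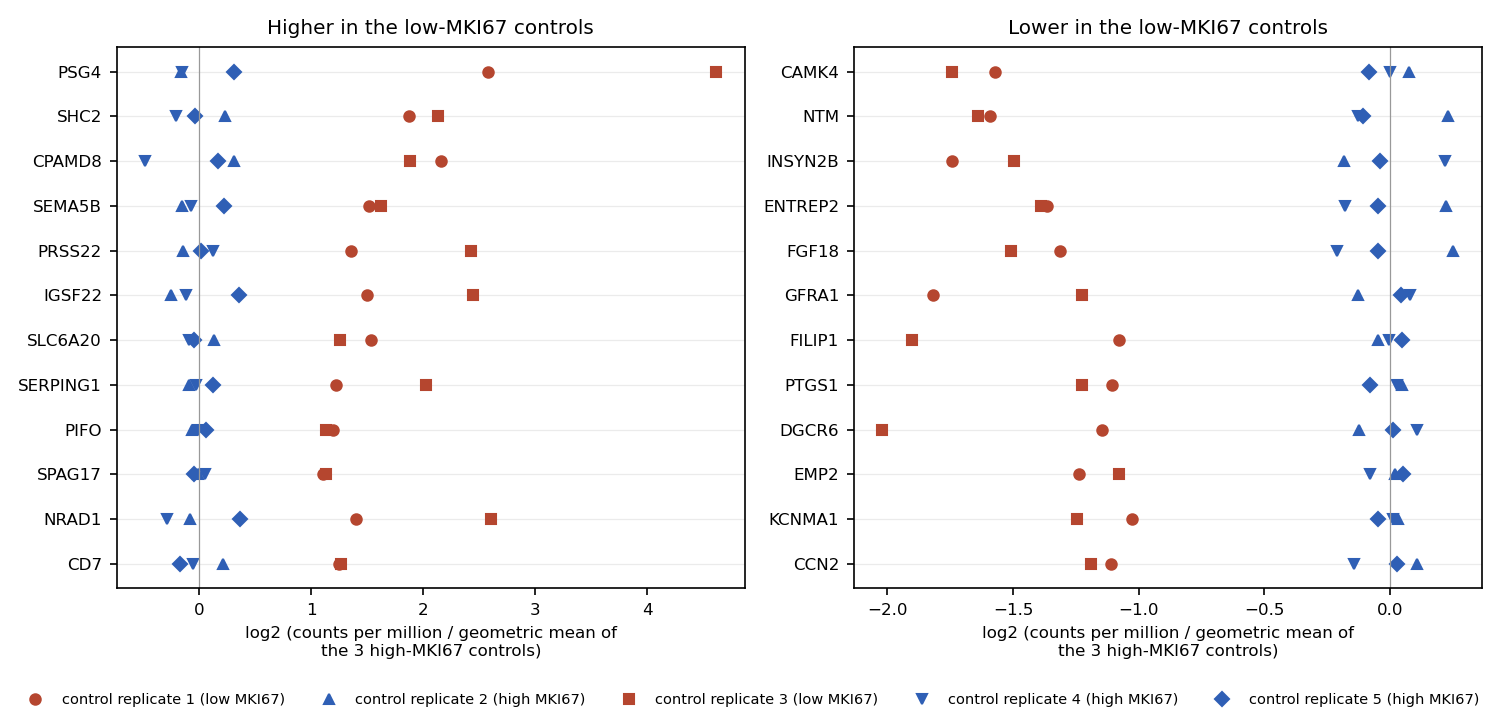
The 12 genes in each direction outside the cell cycle list with the widest gap between the nearest cultures of the sets; the x axis is the log2 ratio of a control culture's CPM to the geometric mean of the 3 high-MKI67 controls, and each point is 1 culture. Replicates 1 and 3 are separated from replicates 2, 4 and 5 in every row by construction, and PSG4 shows the largest distance between replicates 1 and 3 themselves, at 7.25 and 29.7 CPM.

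Transport and brush border genes lay higher in the slow cultures where they lay apart. Of 24 tested genes of proximal tubule transporters and receptors, 5 were higher and 0 lower, and the median difference was 0.37 against 0 over all genes. SLC34A2, a sodium-dependent phosphate transporter, read 388.7 and 585.6 CPM against 169.2, 171.0 and 229.9. The study names another member of that family, SLC34A1, among genes of tubular cell function. SLC7A8, a neutral amino acid exchanger of the basolateral membrane, read 3.33 and 2.28 against 0.758, 0.919 and 0.798. FXYD2, the gamma subunit of the sodium pump, read 96.7 and 96.8 against 66.7, 56.6 and 50.5. The other 2 were SLC3A1, a cystine transporter subunit, with a difference of 0.70, and SLC9A3, the apical sodium and proton exchanger, with 1.01; about 30% of the exons of either lie under a gene of the opposite strand (29.4% and 30.3%). Without control replicate 3 the list had 7 higher and 0 lower genes and a median of 0.41. The rule then rests on replicate 1 alone, and the shares over all genes were 7.62% higher and 5.14% lower, against 4.09% and 5.10% with it. These shares belong beside every list count without replicate 3 below, so a larger count there does not show a stronger list.

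The list of brush border and tubule enzymes had 4 of 23 genes higher and 0 lower, with a median of 0.15. PDZK1IP1, which binds the scaffold of the brush border, read 174.1 and 250.3 CPM against 88.9, 115.8 and 109.9. PDZK1, that scaffold, read 108.8 and 99.2 against 56.0, 68.3 and 82.7. MIOX, the kidney enzyme that opens the inositol ring, read 10.4 and 13.9 against 5.72, 4.79 and 4.67. In these 3 genes both slow cultures contributed, whereas MME, the brush border peptidase neprilysin, read 15.3 and 66.2 against 13.3, 9.27 and 9.86 and was thus high mainly in replicate 3. Without replicate 3 the list had 8 higher and 2 lower genes. Of 23 tubule transcription factors, NR1H4 (difference 0.85) and MAF (1.38) were higher and 0 lower; NR1H4 encodes the bile acid receptor FXR. The tubule markers named above did not lie apart. ANPEP was nonetheless lower in both slow cultures, at 188.4 and 197.5 against 206.6, 368.2 and 278.1, by less than 1.5-fold. PAX8, at 583.5 and 626.5 against 517.2, 469.2 and 468.4, and AQP1, at 2.02 and 2.07 against 1.93, 1.62 and 1.46, were higher in both by less than 1.5-fold.

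A minority of acute phase and injury genes lay apart. Of 20 tested complement and acute phase genes, 5 were higher and 2 lower, with a median of 0.30, and without replicate 3 the counts were 7 and 2. SERPING1, the C1 inhibitor, read 16.6 and 28.9 CPM against 6.65, 6.95 and 7.71. SAA1, an acute phase protein, read 1.22 and 3.23 against 0.630, 0.780 and 0.470, and SAA2, its near-identical copy, differed by 1.95 on the log2 scale. The other higher genes were C4B (0.76) and LCN2 (1.33), and the lower ones C5 (−0.85) and PTX3 (−1.03). C4B, too, has a near-identical copy. Of 28 tubule injury markers, LTF, LCN2 and SLPI were higher and 0 lower. LTF, lactoferrin, read 1.09 and 2.02 against 0.179, 0.149 and 0.126. Their list had a median of 0.14, and without replicate 3 there were 3 higher and 1 lower and the median was −0.10.

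Several stress lists leaned on control replicate 3. Of 29 p53 targets, 3 were higher and 1 lower, with a median of 0.08, and without replicate 3 the counts were 1 and 1. CDKN1A, the cyclin kinase inhibitor p21, read 80.9 CPM in control replicate 1 and 207.6 in replicate 3, against 80.3, 66.7 and 74.3. Replicate 1 was thus just above the highest fast culture for p21, although both slow cultures had a similar level of MKI67. GDF15, a stress cytokine, read 157.4 and 418.2 against 136.2, 90.6 and 120.6. BBC3, which encodes PUMA, differed by 0.72, and FAS, the death receptor, was lower at 18.7 and 16.9 against 32.1, 28.4 and 28.4. Of 28 integrated stress response targets, CTH, ATF3, GDF15, PPP1R15A and ADM2 were higher and 0 lower, with a median of 0.12. ATF3 read 1.25 and 3.81 against 1.03, 0.854 and 0.974. Without replicate 3 this list had 3 higher and 2 lower genes. The 25 unfolded protein response targets held no gene apart and had a median of −0.14.

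The NRF2 and glutathione list had 4 of 30 genes higher and 0 lower, with 2 and 1 when replicate 3 was left out. FTH1, the ferritin heavy chain, read 1708.7 and 3373.6 CPM against 1588.5, 1285.9 and 1383.8; 63.2% of its exons lie under a gene of the opposite strand. FTL, the light chain, differed by 0.88. HMOX1, heme oxygenase, was highest in replicate 1, at 48.9 and 24.5 against 11.3, 21.6 and 21.6. Of 33 lysosome and autophagy genes, GPNMB, TPP1, GABARAPL1 and WIPI1 were higher and 0 lower, with a median of 0.28 that was 0.09 without replicate 3. GPNMB read 184.5 and 395.0 against 129.9, 65.9 and 124.5. Of 36 glycolysis and hypoxia genes, NDRG1, PFKFB3, MXI1 and ADM were higher and 0 lower, and without replicate 3 there were 5 higher and 1 lower. NDRG1 read 48.9 and 53.7 against 23.7, 28.7 and 28.3, and ADM, adrenomedullin, 35.4 and 56.1 against 11.5, 23.1 and 23.9. In NDRG1 and ADM both slow cultures stood clear of the fast ones, whereas for CDKN1A and FTH1 replicate 1 lay close to the highest fast culture.

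Genes of growth factor signalling were among the clearest of the lower groups. Of 33 immediate early and AP-1 genes, 7 were lower and 1 higher, with a median difference of −0.27, and without replicate 3 the counts were 7 and 0. EGR1 read 13.1 and 12.5 CPM against 47.4, 26.9 and 22.2. FOSL1, an AP-1 subunit, read 12.5 and 12.9 against 34.6, 33.4 and 23.9. DUSP6 and SPRY4, which ERK induces and which damp its signal, read 20.1 and 16.3 against 38.0, 32.1 and 30.6, and 83.9 and 62.4 against 112.1, 116.6 and 109.0. For DUSP6, 28.6% of the exons lie under a gene of the opposite strand. The 2 slow cultures were close together for EGR1, FOSL1 and DUSP6 and less so for SPRY4, while EGR1 varied about 2-fold among the fast cultures. EGR3, ETV4 and KLF2 were the other lower genes, with differences of −2.12, −0.67 and −0.65, and ATF3 was the higher one.

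Receptors and ligands of growth factors went both ways. FGFR2 read 82.3 and 77.8 CPM against 28.5, 40.4 and 45.8, and FGFR3 93.6 and 56.1 against 35.8, 44.7 and 41.6. IGFBP5, an IGF-binding protein, read 196.7 and 116.9 against 369.1, 466.4 and 463.8. The list of IGF-binding proteins and growth factor ligands and their receptors had 31 tested genes, of which those FGF receptors were higher and IGFBP5 and FGF1 (−1.48) lower. Without replicate 3 there were 4 higher and 6 lower. FGF18 and GFRA1, described above, lay on the lower side with them.

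The promoters of EGR1, CCN2 and CXCL8 are shown because they hold known response elements and each gene was itself lower in the slow cultures. The sequences are the 250 bases before the RefSeq start on GRCh38.p14. EGR1 is on the plus strand at chr5:138465229-138465478, and its capitals mark the CArG box of serum response factor. CCN2 is on the minus strand at chr6:131951373-131951622, with the TEAD letters GGAATG in capitals. CXCL8 is on the plus strand at chr4:73740319-73740568, with the AP-1 letters TGANTCA in capitals.
EGR1: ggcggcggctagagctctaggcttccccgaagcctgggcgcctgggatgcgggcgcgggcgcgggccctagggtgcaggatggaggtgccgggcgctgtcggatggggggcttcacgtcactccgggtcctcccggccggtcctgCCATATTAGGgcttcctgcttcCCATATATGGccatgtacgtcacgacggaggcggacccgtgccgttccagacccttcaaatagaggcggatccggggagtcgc
CCN2: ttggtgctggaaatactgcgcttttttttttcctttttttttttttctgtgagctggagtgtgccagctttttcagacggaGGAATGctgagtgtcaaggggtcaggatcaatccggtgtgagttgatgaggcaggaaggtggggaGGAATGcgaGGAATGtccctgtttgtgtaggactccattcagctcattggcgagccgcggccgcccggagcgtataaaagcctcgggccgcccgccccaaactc
CXCL8: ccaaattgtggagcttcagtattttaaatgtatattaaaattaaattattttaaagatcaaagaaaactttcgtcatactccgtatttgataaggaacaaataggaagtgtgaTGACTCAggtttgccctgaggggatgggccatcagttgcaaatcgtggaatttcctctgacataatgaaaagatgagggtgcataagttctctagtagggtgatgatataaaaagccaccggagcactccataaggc
EGR1 held 2 CArG boxes, CCN2 held 3 TEAD matches and CXCL8 held 1 AP-1 match. Promoter sequences were found for 408 of the 703 lower genes and 465 of the 776 higher genes outside the cell cycle list. The AP-1 letters occurred in 10.5% of the promoters of lower genes, 6.67% of those of higher genes and 5.02% of the promoters of all genes compared. CArG boxes occurred in 2.21%, 0.430% and 1.07%, and GGAATG in 13.5%, 12.5% and 11.1%. Of the lower genes, 43 had the AP-1 letters and 9 a CArG box, so these shares rest on few genes. Further motifs were CACGTG, in 7.84%, 8.17% and 9.64%, GGGCGG, in 61.5%, 64.9% and 67.7%, TTTGAA, in 13.2%, 11% and 9.98%, and TGACGTCA, in 1.47%, 3.23% and 3.10%. All were searched on both strands of windows of 300 bases, whose median GC content was 64.0%, 64.0% and 65.0%, and a match shows letters only.

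CCN2, the matricellular target of YAP and TEAD, read 46.2 and 43.7 CPM against 107.6, 90.4 and 101.7. The list of 24 YAP and TEAD targets as a group had 2 lower genes, CCN2 and F3, and 2 higher, ANKRD1 and GADD45B, with a median of −0.09. Without replicate 3 there were 3 lower and 0 higher. CXCL8, the neutrophil chemokine, read 3.83 and 4.85 against 11.4, 11 and 6.55. Of 26 chemokines and cytokines, CXCL8 and CSF2 were lower and CXCL12 higher, with a median of −0.11. CSF2 was near the limit of detection in the controls, at 0.0489 and 0.0897 against 0.114, 0.325 and 0.0924, with a gap of 0.03 on the log2 scale. Replicate 1 taken alone had 11 lower and 1 higher gene in this list and a median of −0.42, so replicate 3 did not share most of that deficit. Metallothioneins and zinc transport genes behaved likewise, with 0 of 9 apart in the full set and 4 lower in replicate 1 alone.

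Notch and Wnt genes were mostly lower where they lay apart. Of 37 Wnt, Hedgehog and Notch components, GLI2, WNT7A, HES1, TCF7, NRARP, DKK1 and JAG1 were lower and NOTCH3 higher, with a median of 0, and without replicate 3 the counts were 6 and 1. JAG1, a Notch ligand, read 78.7 and 66.2 CPM against 158.7, 124.6 and 137.8. HES1, a Notch target, read 32.6 and 37.3 against 60.4, 53.2 and 59.8. DKK1, a secreted inhibitor of Wnt, read 12.5 and 5.61 against 21.7, 26.0 and 24.1. Of 29 TGF-beta, BMP and activin components, 3 were higher (ID3, FSTL3, GDF15) and 4 lower (SKIL, ID4 and NOG among them), and 1 and 3 without replicate 3.

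Sterol synthesis genes were lower where they lay apart. Of 34 cholesterol and fatty acid synthesis genes, 5 were lower and 0 higher, with a median of −0.30, and without replicate 3 the counts were 7 and 0. HMGCS1, an early enzyme of the mevalonate pathway, read 92.2 and 115.0 CPM against 171.0, 164.7 and 160.7; 37.7% of its exons lie under a gene of the opposite strand. MSMO1, ACAT2 and ELOVL6 differed by −0.62, −0.74 and −0.62. Of 32 ribosome biogenesis and MYC target genes, ODC1 alone lay apart, at 55.8 and 42.4 against 78.3, 78.2 and 82.1, yet the median of that list was −0.31. The shift in this list was thus spread over genes that each differed by less than 1.5-fold or overlapped. The 48 cytosolic ribosomal proteins had no gene apart and a median of 0.11. The 13 mitochondrially encoded genes had none apart and a median of 0.28, which was 0.01 without replicate 3, the culture with the highest share of mitochondrial counts.

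Junction and matrix genes were divided. TJP3, a tight junction scaffold, read 21.8 and 24.4 CPM against 9.06, 11.8 and 9.88, and CLDN4, a claudin, 473.6 and 573.4 against 280.3, 284.6 and 325.9. CDH2, N-cadherin, was lower but near the limit of detection, at 0.0612 and 0.0698 against 0.365, 0.390 and 0.378. PKP2 and GJB2 were the other lower genes among 36 of cell junctions and polarity, and without replicate 3 there were 4 higher and 3 lower. Among 37 matrix genes 4 were lower, including TGFBI, COL12A1 and DCN, and FBLN2 was higher; their median was 0.01, and without replicate 3 there were 6 lower and 2 higher. Among 24 matrix proteases and inhibitors, 4 were lower, including ADAMTS6, PLAT and MMP1, and MMP15 was higher, and without replicate 3 there were 7 lower and 0 higher. MMP1 was near the limit of detection in the controls, at 0.0122 and 0.0199 against 0.0572, 0.121 and 0.0504. It read 0.284 to 0.821 in the irradiated cultures, so it passed the filter of counts mainly through those. Of 15 keratins and other intermediate filament genes, NES, LMNB1 and LMNB2 were lower and 0 higher, with a median of −0.27. LMNB1, lamin B1, read 28.8 and 32.1 against 73.9, 80.9 and 78.2. Both B-type lamins are on the cell cycle list, which leaves NES, at 0.807 and 0.658 against 1.45, 1.47 and 1.5.

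Further lists had genes apart in both directions, few genes apart or none. Interferon-stimulated genes had 4 of 42 higher (RSAD2, IFIT2, IFI27, ISG20) and 3 lower (CMPK2, OAS3, USP18), with a median of 0. Over all genes outside the cell cycle list the shares were 4.19% higher and 3.80% lower. OAS3 read 20 and 16.6 CPM against 36.2, 37.7 and 33.0. Of 31 quiescence and growth arrest genes, CCND2 was higher and CDKN2C and SESN3 lower. CDKN2C is on the cell cycle list. CCND2, a cyclin gene, and CDKN1A, named above, are not on it and are counted among the 776 higher genes. Both act in the cell cycle, so their values too are a description only. Of 19 glucocorticoid-responsive genes, CEBPD and CRISPLD2 were higher, while without replicate 3 there were 0 higher and 3 lower, and of 29 actin cytoskeleton genes CNN1 was higher. The 19 genes of HLA class I and antigen presentation held none apart, with a median of 0.10.

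**Figure D3:**
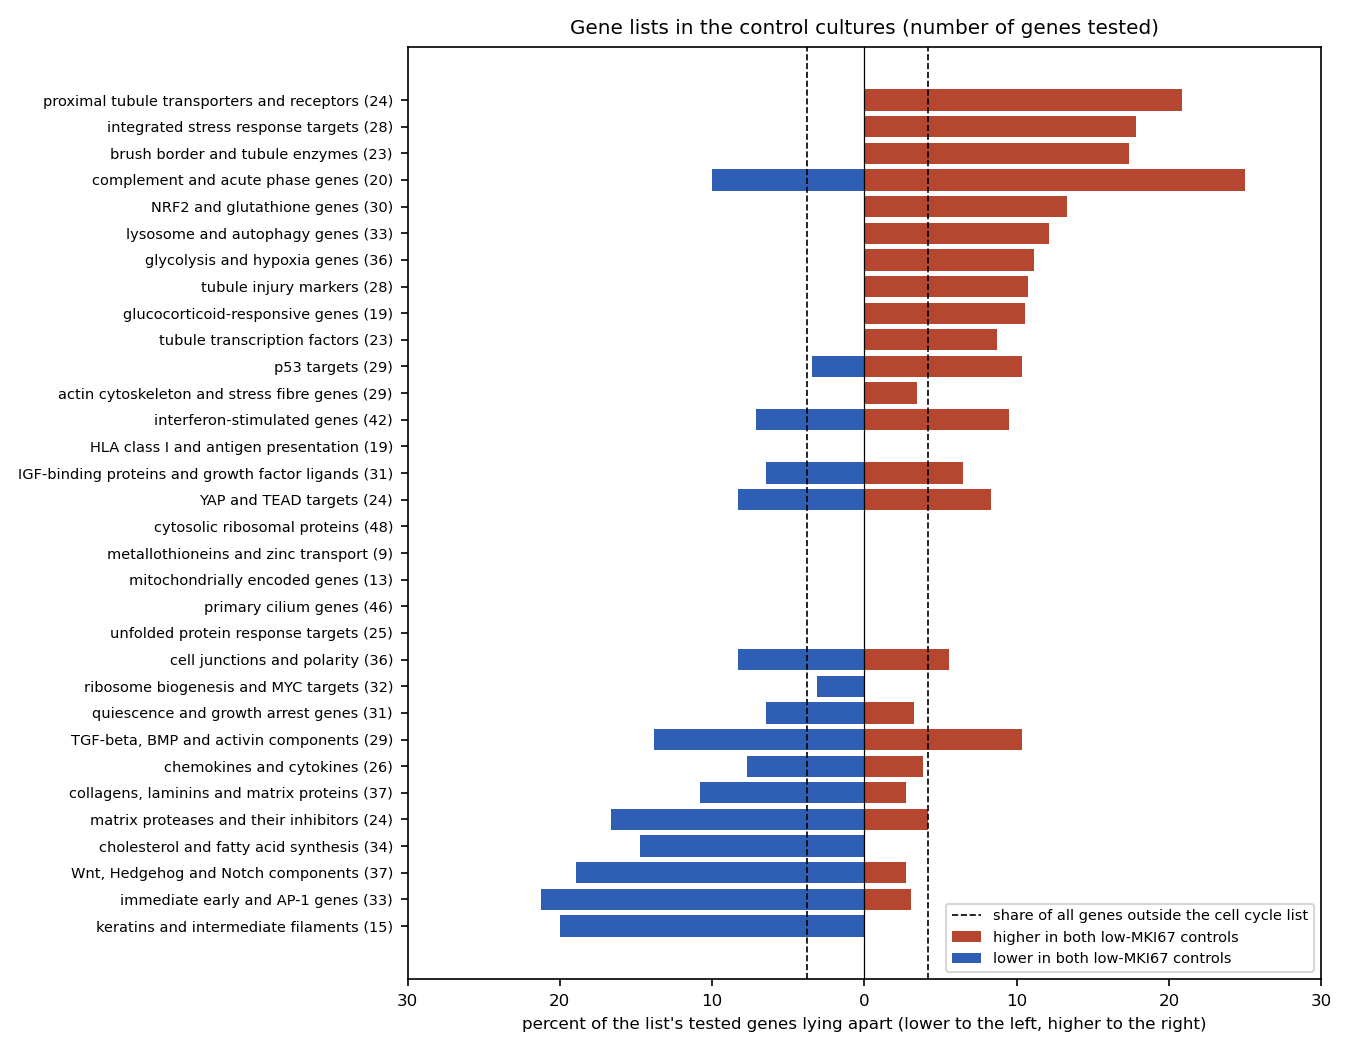
Gene lists in the control cultures, in rows with the number of genes tested; bars give on the x axis the percent of the list that lay apart, higher in the low-MKI67 controls to the right and lower to the left, and dashed lines give 4.19% and 3.80%, the shares of all genes outside the cell cycle list. Transporter, brush border and stress lists extend to the right and immediate early, Wnt and Notch, and cholesterol lists to the left; the transporter bar stands for 5 of 24 genes and the immediate early bar for 7 of 33. Lists of other cell types are left out.

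Markers of cells that the culture could hold besides tubule cells were summed for each control. Fibroblast markers summed to 24.8 and 27.2 CPM in the low-MKI67 set and 19.9 to 24.8 in the high-MKI67 set, with COL3A1 and LUM at 0, and DCN was the only 1 of 3 tested that lay apart, lower in the slow cultures. Endothelial markers summed to 1.33 to 1.49 against 1.98 to 2.49, with PECAM1 lower of 3 tested. Leukocyte markers summed to 0.887 to 1.04 against 0.697 to 0.851, with PTPRC higher of 3 tested. Distal nephron markers spread from 103.9 to 153.1 in the low-MKI67 and from 112.3 to 404.0 in the high-MKI67 set, with UMOD and FOXI1 at 0 and 0 of 5 tested apart, led by SLC12A1 and AQP3. Podocyte and parietal cell markers summed to 409.3 to 501.6 against 456.5 to 492.4, with SYNPO higher of 5 tested, led by CLDN1 and PAX2. The part of such cells in the differences was not tested.

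Control replicate 3 also differed from all other controls by itself. Outside the cell cycle list it alone lay at least 1.5-fold above the nearest other control in 565 genes (3.05%) and below it in 830 genes (4.48%). For control replicate 1 the counts were 347 (1.87%) and 117 (0.632%). NPR1, the receptor of atrial natriuretic peptide, read 23.8 CPM in replicate 3 and 1.44 to 3.38 in the other 4 controls. APOE, the apolipoprotein of lipid transport, read 48.1 against 2 to 7.18. SOX9, a factor of tubule progenitors and repair, read 18.6 against 66.8 to 76.2. For SOX9 replicate 1 lay within the range of the fast cultures, whereas for NPR1 and APOE it lay above them, at 3.38 against 1.44 to 1.94 and at 7.18 against 2 to 5.64. Other wide gaps between replicate 3 and the nearest control were in PLA1A, MME, PSG4, GDA, MYO7B and ST3GAL4, all higher. On the lower side they were in FGL2, SH3TC1, CAPN8, KCNJ6, STK32A, LINC01933 and MAP2K6. Apart from GDA and ST3GAL4, these genes also lay apart between the sets, so replicate 1 too lay beyond the fast cultures. Control replicate 1 had its widest gap on the higher side in PDE1A, a cyclic nucleotide phosphodiesterase, at 13.8 against 1.95 to 3.26. PPFIA4, FLJ16779, ERVH-1 and FER1L4 followed. On the lower side its widest gaps were in NETO1, at 2.47 against 5.35 to 10.4, and in CHRM3, MDK, GPC6 and FGFBP1. Of these, FLJ16779, FER1L4, NETO1, GPC6 and FGFBP1 also lay apart between the sets.

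The irradiated cultures with the same replicate numbers were not used to divide the controls, so the division could be tested in them. The question was whether irradiated replicates 1 and 3 differed from irradiated replicates 2, 4 and 5 in the same genes. The comparison shares no sample with that of the controls, and the only link is the replicate number. In MKI67 itself no difference was found, with 26.2 and 25.4 CPM in irradiated replicates 1 and 3 and 15.3, 29.6 and 23.5 in replicates 2, 4 and 5, a log2 fold change of 0.17 ± 0.24 (SE; edgeR quasi-likelihood test, adjusted p = 0.833). Of the 266 cell cycle genes lower in the slow controls, 1 lay apart in the same direction after irradiation and 4 in the other. Irradiated replicates 1 and 3 differed from each other by 0.23 over the other genes, against 0.24 to 0.35 from the remaining 3 irradiated cultures. Irradiated replicates 4 and 5 differed by 0.11, but irradiated replicate 2 differed from replicates 4 and 5 by 0.3 and 0.27. The irradiated cultures thus did not divide cleanly by the replicate sets in this measure.

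Outside the cell cycle list, 140 of the 776 genes higher in the slow controls (18%) also lay apart with higher levels in irradiated replicates 1 and 3, against 443 of all 19006 genes (2.33%). Only 6 (0.773%) lay apart the other way, against 308 of all genes (1.62%). Of the 703 lower genes, 77 (11%) lay apart with lower levels, against 308 of all genes (1.62%). A further 29 (4.13%) lay apart the other way, against 443 of all genes (2.33%). The median irradiated difference was 0.28 for the higher and −0.15 for the lower genes, and 0 over all genes. Most genes that divided the controls thus did not divide the irradiated cultures by this rule, while those that did mostly kept the direction. Replicates with the same number may share a batch, a day or a passage, which the labels do not give, and the part of that in the shared genes was not tested.

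**Figure D4:**
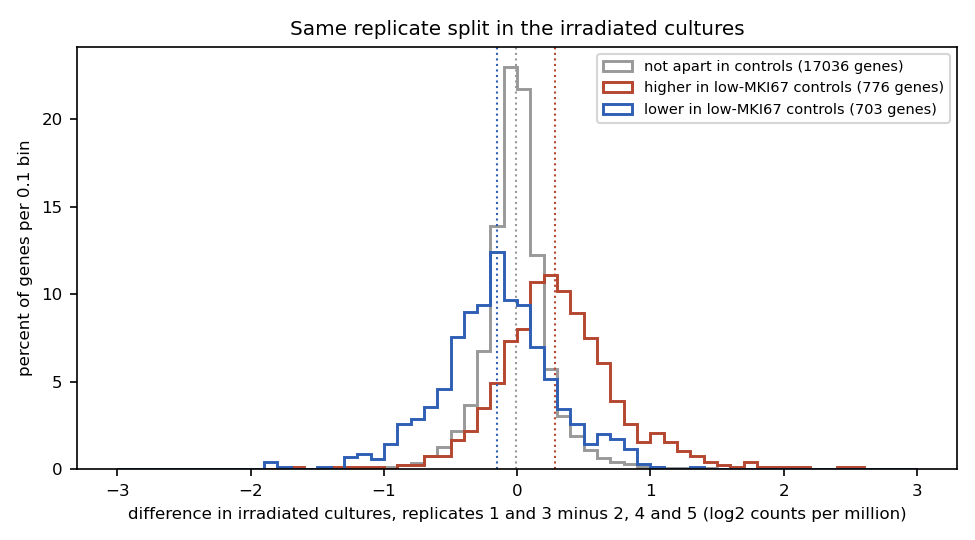
Difference between irradiated replicates 1 and 3 and irradiated replicates 2, 4 and 5 in log2 CPM on the x axis, with the percent of genes in each bin on the y axis, for genes outside the cell cycle list; dotted lines are medians and the outermost bins take in more extreme values. The 776 genes higher in the low-MKI67 controls have a median of 0.28 and the 703 lower ones a median of −0.15.

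By the edgeR quasi-likelihood test across 19006 genes, 2 genes (0.0105%) were called higher and 1 (0.00526%) lower in irradiated replicates 1 and 3, while 2160 genes (11.4%) had an unadjusted p under 0.05. VTCN1 was the only gene called that also lay apart in the controls. It encodes B7-H4, a cell surface inhibitor of T cells, and lies on the minus strand of chromosome 1 at 117143587 to 117210960 (GRCh38). It read 57.0 and 44.7 CPM in control replicates 1 and 3 and 16.4, 27.4 and 25 in replicates 2, 4 and 5. After irradiation it read 48.3 and 44 against 15.8, 19.8 and 17.6, so the replicate sets did not overlap in either treatment and the levels were similar with and without radiation. The irradiated log2 fold change was 1.38 ± 0.11 (SE; edgeR, adjusted p = 0.0315). Without irradiated replicate 1, 3 or 5 the adjusted p was 0.212, 0.332 and 0.253, and it was 0.00579 and 0.0147 without replicates 2 and 4. Without replicate 1 or 3 a single culture stands for its set and is assumed to vary like the others.

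NOSTRIN, which regulates traffic of nitric oxide synthase, was higher in irradiated replicates 1 and 3, at 6.16 and 5.87 CPM against 1.73, 1.95 and 1.56 (log2 fold change 1.78 ± 0.14, edgeR adjusted p = 0.0315). In the controls it did not follow the division, with 3.34 and 1.92 against 3.34, 3.35 and 2.69. PTCHD4, a patched-domain protein and p53 target, was lower, at 31.1 and 29.9 against 57.2, 52.3 and 54.3 (log2 fold change −0.84 ± 0.07, edgeR adjusted p = 0.0315). Its control values, 4.60 and 7.46 against 6.10, 5.11 and 4.78, overlapped. Both calls were lost without irradiated replicate 1, 3, 4 or 5, with adjusted p of 0.0701 to 0.332 in edgeR.

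Other named genes lay apart in both treatments without passing the test. INSYN2B read 5.42 and 6.35 CPM in irradiated replicates 1 and 3 against 11.2, 11 and 11.8, with a log2 fold change of −0.95 ± 0.11 (edgeR adjusted p = 0.0742), and 2.85 and 3.38 against 8.41, 11.1 and 9.29 in the controls. TJP3 read 17.9 and 19 against 8.81, 10.9 and 10.2, with 0.89 ± 0.11 (edgeR adjusted p = 0.0832). MME read 28.5 and 25.3 against 10.9, 6.08 and 7.46, with 1.73 ± 0.22 (edgeR adjusted p = 0.0871), so that irradiated replicate 1 matched replicate 3 there although control replicate 1 did not. SLC7A8 read 1.81 and 1.22 against 0.448, 0.653 and 0.565, with 1.43 ± 0.26 (edgeR adjusted p = 0.152). CAMK4 read 3.83 and 3.05 against 4.67, 6.96 and 7.72, with −0.91 ± 0.23 (edgeR adjusted p = 0.264). EGR1 read 13.4 and 9.25 against 38.1, 20.5 and 21.2, with −1.23 ± 0.30 (edgeR adjusted p = 0.253). IGFBP5 read 239.8 and 177.6 against 317.4, 366.1 and 432.9, with −0.84 ± 0.17 (edgeR adjusted p = 0.198), and GFRA1 59.8 and 65.9 against 87.1, 118.9 and 131.0. PSG4, PRSS22, SERPING1, PDZK1IP1, PIFO, SPAG17, LTF, GSTM3, HMOX1, ID3, ANKRD1, CCND2, IFI27, NOTCH3, PTPRC, MYO7B, FER1L4 and APOE also lay apart on the higher side in both treatments, and COL12A1, GLI2, DCN, CDH2, CAPN8 and GPC6 on the lower side.

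Carry-over differed between other named genes. FOSL1 read 58.3 and 70.8 CPM in irradiated replicates 1 and 3 against 43.9, 66.6 and 56.8, and CXCL8 112.6 and 127.2 against 48.5, 122.5 and 93.5. Both genes overlapped between the sets after irradiation, with irradiated replicate 2 the lowest. FGFR2 overlapped as well, at 11.9 and 7.63 against 10.8, 8.68 and 9.24. DKK1 lay apart in the opposite direction, at 56.0 and 83.8 against 31.0, 39.9 and 35.7, as did NES and MMP1. MMP1 was near the limit of detection in the controls, so its reversal is uncertain. BBC3, higher in the slow controls, read 21.6 and 22 against 32.7, 32.1 and 31.7, with a log2 fold change of −0.56 ± 0.06 (edgeR adjusted p = 0.0742). After irradiation, the shares of all genes that lay apart were 2.33% higher and 1.62% lower. List counts there take any member, whether or not it lay apart in the controls. Of 34 cholesterol genes 0 lay apart and the median difference was 0.10. Of 33 immediate early genes 1 was lower (EGR1), with a median of 0.05. Counts of 0 or 1 in lists of this size show little beside those shares. Of 37 Wnt, Hedgehog and Notch components 4 were higher and 2 lower, with a median of −0.09. Of 24 transporters 3 were higher and 0 lower, with a median of 0.02. Among the transporters that lay apart in the controls, only SLC7A8 did so here. Of 23 brush border and tubule enzymes 4 were higher and 0 lower, with a median of 0.25. Among the enzymes that lay apart in the controls, only PDZK1IP1 and MME did so here.

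**Figure D5:**
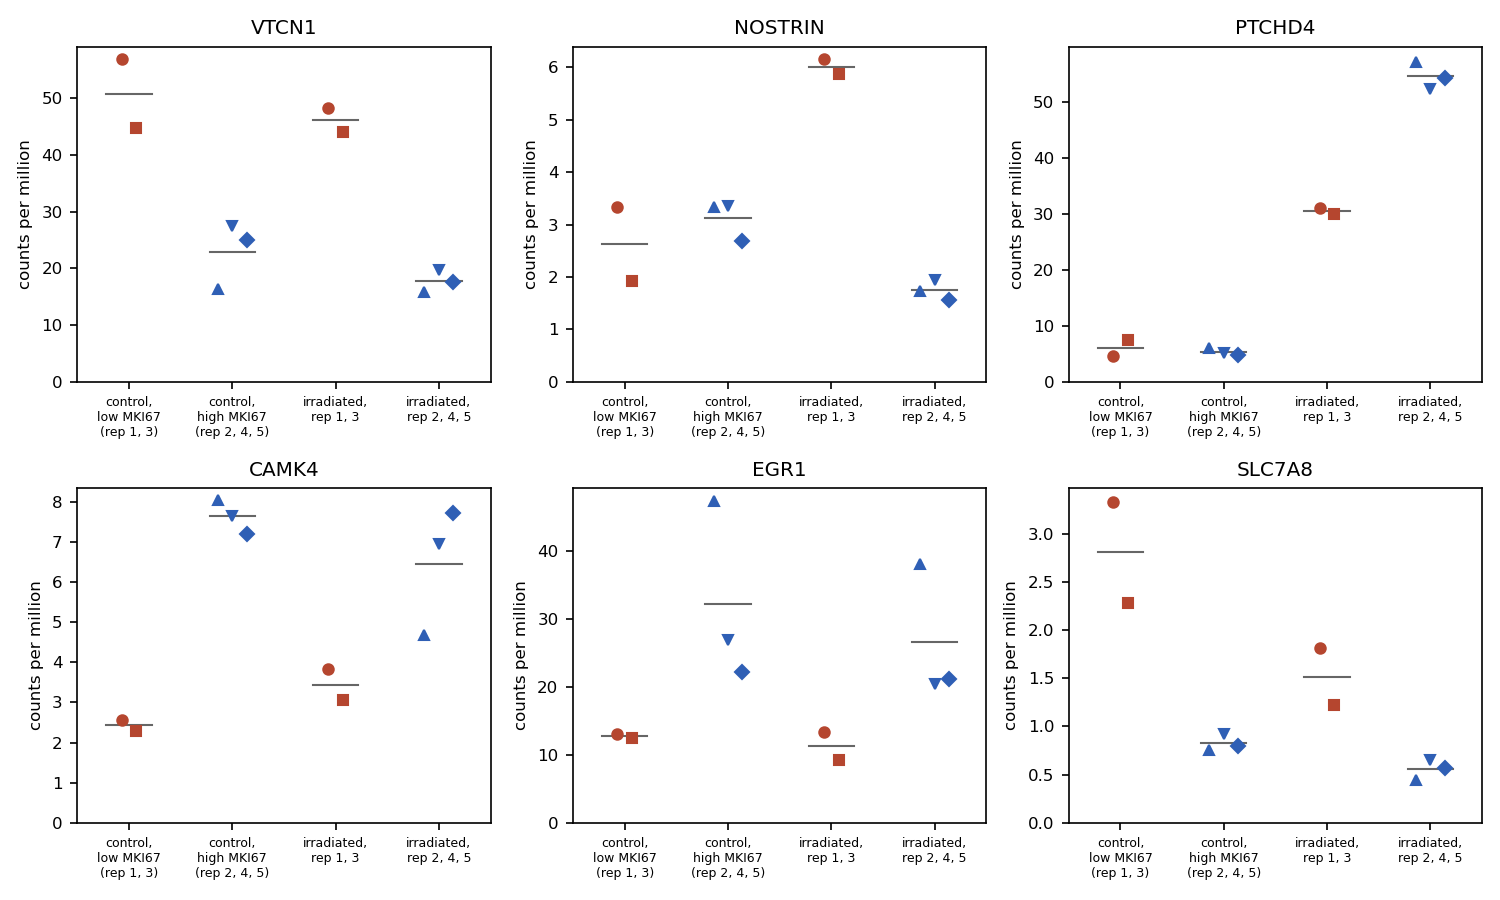
CPM (y axes, from 0) of 6 genes in each culture, divided by treatment and replicate number; each point is 1 sample, its shape gives the replicate number and grey lines are set means. VTCN1, CAMK4, EGR1 and SLC7A8 lie apart in both treatments, while NOSTRIN and PTCHD4 divide the irradiated cultures and overlap in the controls; VTCN1 reads 44 to 57 in replicates 1 and 3 and 15.8 to 27.4 in replicates 2, 4 and 5.

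The genes on either side of the control division also differed in base composition. The median GC content of the longest transcript was 53.9% for the 776 higher genes, 46.5% for the 703 lower genes and 47.8% for all genes compared. Median transcript length was 2762 bases, 3044 bases and 3150 bases. After the trend of each sample on GC content was removed, 86.2% of the higher and 90.8% of the lower genes lay apart again, and after the same for length 96.1% and 96.9%. The part of base composition in the differences was otherwise not tested.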

How the data were processed

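Gene expression was measured by bulk RNA-seq of poly(A) RNA in 5 control and 5 irradiated samples. The authors trimmed the reads, aligned them to GRCh38 with STAR and counted reads per GENCODE gene, and they deposited whole-number counts for each sample. All sample columns were used and 0 columns were left out. The labels gave treatment and replicate, and MKI67 then divided the controls. The members and the 37 gene lists were chosen with earlier results of these data known.

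A gene was kept where its counts summed to 200 or more across the 10 samples, which is the filter of the study. Levels are CPM after TMM normalisation in edgeR 4.0.16 under R 4.3.3, and control differences are on the log2 scale with a prior count of 2. A gene lay apart where the sets did not overlap and their means differed by at least 1.5-fold; no test was made in the controls. Irradiated samples were tested with edgeR glmQLFit and glmQLFTest on these samples alone, two-sided, with Benjamini-Hochberg adjustment and a threshold of 0.05. The study blocked on replicate number, which cannot be done here because the contrast lies between numbers. Standard errors are the log2 fold change over the square root of F.

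Outside a list of cell cycle genes, with a mean of at least 1 log2 CPM in the controls, the text names the 12 genes in each direction with the widest gaps, up to 10 in each direction called in irradiated cultures that also lay apart in controls, 8 and 5 in each direction that set control replicates 3 and 1 apart, and list members that lay apart. Genes called in irradiated cultures were added. Identifiers matched a symbol in 18969 of 19006 genes; promoters came from RefSeq (GRCh38.p14). The values of a few list members are not reported here. Counting on strand is not stated, so genes under another gene of the opposite strand are uncertain. Beside the genes flagged above, this holds for part of the exons of others, such as WIPI1 (28.1%), PAX8 (22.4%), ACAT2 (22.2%) and CDKN2C (20.4%). Alternatives were other scalings, filters, a prior count of 0.5, a minimum of 2-fold, DESeq2 1.42.0, limma-voom (limma 3.58.1), a 4-group fit, leaving out replicates and, chosen after seeing the data, corrections for GC content and length. Totals of 66269311 to 131555873 counts per sample leave the spread between replicates, not counting error, as the limit except near 200 counts.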

Additional observations from a re-analysis of the deposited data

Results flagged for a closer look

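Among groups of 5 values (the genes with values per sample above, in controls and in irradiated cultures), 15 had a highest or lowest sample far from the other 4 by Dixon's criterion, where chance would give about 1 in 20, here 6.6 groups. Of these, 10 were control replicate 3. In CPM, that culture was high for PSG4 at 29.7, SAA1 at 3.23, GDF15 at 418.2, ATF3 at 3.81, CDKN1A at 207.6, FTH1 at 3373.6, NPR1 at 23.8, APOE at 48.1 and MME at 66.2, and low for SOX9 at 18.6. The other 4 controls lay between 66.7 and 80.9 for CDKN1A and between 66.8 and 76.2 for SOX9. Control replicate 1 was high for PDE1A at 13.8, and so was irradiated replicate 1 at 0.939, against 0.164 to 0.259 in the other irradiated cultures. Irradiated replicate 3 was high for SERPING1 at 20.8 and APOE at 6.52. Irradiated replicate 2 was high for CD7 at 2.82. The genes were chosen in part for gaps of control replicates 3 and 1, so these counts are no independent sign.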

How the results depend on the processing

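The controls gave 777 higher and 969 lower genes. With every gene of at least 1 count there were 2013 and 2437, and with a minimum of 2-fold 229 and 383. Without 1 replicate there were 795 to 1454 and 977 to 2107, depending on the culture left out. The rule then rests on fewer cultures, and its part in the rise was not tested. Other scalings, filterByExpr, the prior count and the GC and length corrections kept both counts within 1.5 times. Of 1596 differences of named genes under alternatives (133 genes), 0 changed direction and 118 moved by more than the spread, 109 of them without replicate 1 or 3. No scaling moved the median of all genes by over 0.1 (−0.05 in controls and −0.07 in irradiated cultures with library size only).

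In irradiated cultures, the 2 higher and 1 lower calls became 0 and 0 with library size only, with the 4-group fit and with the length correction, 695 and 308 with every gene of at least 1 count, 250 and 172 with DESeq2 and 5 higher with filterByExpr. Without 1 replicate they ranged from 0 to 153 and from 0 to 99, the highest without replicate 2. The single gene apart in controls and called became 0 with library size only, the 4-group fit and the length correction, 2 with the GC correction, 3 with filterByExpr, 123 with DESeq2, 278 with every gene of at least 1 count and 0 to 111 without 1 replicate. The adjusted p of VTCN1 was 0.0835 with library size only, 0.0875 in the 4-group fit and 0.0526 with the length correction, and otherwise at most 0.0315 except without 1 replicate. The cause was not tested. The 140 and 77 genes apart in the same direction in both treatments became 271 and 221 with every gene of at least 1 count, 38 and 16 with 2-fold and 145 to 437 and 89 to 416 without 1 replicate.

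No paired analysis was possible because the sets compared hold different replicate numbers, so a block on replicate would absorb the contrast. With 2 against 3 samples only large differences with little spread can pass, and genes near 200 counts are limited by depth as well.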
